A study of Mus musculus with 23 samples.

Results

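Lysosomal enzymes and the subunits of the vacuolar proton pump (V-ATPase) were followed across 23 libraries from PyMT mammary tumors of mice. The list holds 38 named genes of 47643 gene identifiers in the tables, and all 38 were matched by symbol. The genes were chosen by name with the contrast of γδ T-cell receptor (TCR) blockade in view, in which measured levels of the V-ATPase gene Atp6v1g3 were higher and those of macrophage genes lower. The 25 lysosomal genes are 10 cathepsins and other peptidases, 6 glycosidases, 6 genes of lipid handling and 3 genes of membrane glycoproteins and progranulin. The list holds 11 genes of the pump, 4 of its membrane sector V0 and 7 of its catalytic sector V1. Tfeb, a transcription factor, and Slc37a2, a sugar-phosphate transporter of macrophages, complete the list.

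The tumors arose in female C57BL/6 mice that carry the polyoma virus middle T oncoprotein (PyMT) as a transgene. IL-38 is a cytokine of the IL-1 family. In the neutralization experiment, PyMT WT mice received IgG1 isotype control (n = 5) or anti-IL-38 antibodies (n = 6). In the γδTCR experiment, PyMT WT mice received IgG (n = 4) and PyMT IL-38 KO mice, bred from an IL-38 KO strain on C57BL/6N, received IgG (n = 4) or anti-γδTCR antibodies (n = 4). Antibodies were given weekly over 5 weeks in all groups. Anti-γδTCR was given to IL-38 KO mice only in the libraries analysed here, so that its effect in WT mice was not analysed here. The labels do not say whether each library came from a separate mouse, and p-values measure the spread between libraries.

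The lysosome is the acidic compartment in which a cell breaks down protein, sugar chains and lipid. The V-ATPase pumps protons into it, with V1 splitting ATP in the cytosol and V0 carrying protons across the membrane, and the acid hydrolases work at the pH it sets. TFEB and its relatives bind a palindrome named the CLEAR motif near the start of many lysosomal genes. Macrophages are rich in lysosomes, and in mammary tumors they digest dead cells and matrix. Atp6v0d2 and cathepsin K are best known from osteoclasts, and Atp6v1g3 from acid-secreting cells of the kidney.

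The promoters show which of these genes carry the core of that palindrome. RefSeq promoters (GRCm38.p6, 250 bases before to 50 bases after the start) were at hand for 29 of the 38 genes. The 6-letter core CACGTG stood in at least 1 promoter of 11 of the 29 (37.9%), compared with 8.09% of 27025 genes in the same table. The 8-letter form TCACGTGA, which contains the core, stood in 5 of the 29 (17.2%), compared with 1.12% of genes. The full CLEAR motif, which adds 1 fixed letter on each side, was found in 0 of the 29, compared with 0.370% of genes. All 3 are palindromes, so 1 strand covers both. The genes with the 8-letter form were Ctsd, Gla, Ctsa, Atp6v1a and Atp6v0d1, and their sequences are shown because Ctsd and Gla are among the genes with the widest differences between libraries. Capitals mark TCACGTGA. The first 3 sequences are the 250 bases before the start, and the last 2 are 30 bases around the motif.
Ctsd, chr7:142387828-142388077, minus strand: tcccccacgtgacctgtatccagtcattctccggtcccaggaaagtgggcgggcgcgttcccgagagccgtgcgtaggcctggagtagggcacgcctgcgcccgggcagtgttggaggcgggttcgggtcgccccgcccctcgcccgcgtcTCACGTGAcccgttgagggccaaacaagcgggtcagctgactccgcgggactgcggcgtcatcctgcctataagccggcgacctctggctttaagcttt
Gla, chrX:134601006-134601255, minus strand: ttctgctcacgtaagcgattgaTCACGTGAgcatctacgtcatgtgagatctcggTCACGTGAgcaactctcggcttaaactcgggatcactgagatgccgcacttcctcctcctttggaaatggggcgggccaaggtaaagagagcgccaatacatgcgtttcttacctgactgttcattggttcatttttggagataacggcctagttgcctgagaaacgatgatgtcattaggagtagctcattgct
Atp6v1a, chr16:44139260-44139509, minus strand: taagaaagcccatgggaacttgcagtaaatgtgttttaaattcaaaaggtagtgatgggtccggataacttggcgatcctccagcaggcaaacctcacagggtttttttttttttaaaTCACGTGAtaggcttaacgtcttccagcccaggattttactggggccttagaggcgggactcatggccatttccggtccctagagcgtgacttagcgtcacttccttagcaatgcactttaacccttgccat
Ctsa, chr2:164833749-164833778, plus strand: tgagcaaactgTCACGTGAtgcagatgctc
Atp6v0d1, chr8:105566050-105566079, minus strand: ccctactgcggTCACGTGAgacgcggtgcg
In Ctsd, the gene of the aspartic protease cathepsin D, the motif began 99 bases before the start. Gla, which encodes α-galactosidase A, held 2 copies that began 228 and 195 bases before the start. In Atp6v1a, the gene of the ATP-splitting subunit A, it began 132 bases before the start. The other genes with the 6-letter core were Ctsl, Lgmn, Gaa, Glb1, Naglu and Lamp1. These are matches of letters, and binding was not measured.

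Library depth was 6273049 to 15879164 reads on genes. Levels across groups are given in CPM, the reads of a gene scaled to the library's total. No read fell on Il1f10, the gene of IL-38, in any of the 23 libraries (0 reads, which allows 3, or 0.189 to 0.478 CPM, for counting error only), and the genotypes were not checked by it. IL-38 KO + IgG replicate 4 and the 4 libraries of IL-38 KO + anti-γδTCR stood apart from the other 18. They had the fewest reads, 1.31 to 1.98% of reads on processed pseudogenes compared with 0.0943 to 0.191%, and 11.3 to 20.1% of reads on Gm42418, which overlaps ribosomal RNA sequence, compared with 2.62 to 5.70%. The macrophage gene Gpnmb had 25.5 to 118 CPM in these 5 libraries and 2646 to 7313 CPM in the 18. The sample numbers in the column names, 1 to 23 in all, are 19 to 23 in these 5. For the treated tumors, anti-γδTCR and what sets these libraries apart cannot be told apart. Results that rest on IL-38 KO + IgG replicate 4 are therefore given with and without it.

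The summed level of the 25 lysosomal genes was lowest in these 5 libraries. It was 16370 to 18693 CPM with isotype control, 14178 to 18049 with anti-IL-38 and 12258 to 16723 in WT + IgG, and these neighbouring ranges overlapped. In IL-38 KO + IgG it was 11586 to 13765 CPM in replicates 1 to 3 and 5657 in replicate 4. In IL-38 KO + anti-γδTCR it was 5142 to 6843, a range that includes replicate 4 of the untreated KO tumors. The 11 listed pump genes were lowest in the same libraries. They summed to 1899 to 2470 CPM with isotype control, 1531 to 2209 with anti-IL-38, 1570 to 2025 in WT + IgG, 1135 to 1685 in IL-38 KO + IgG, where 1135 is replicate 4, and 784 to 1009 with anti-γδTCR. The gap was smaller for 14 other pump genes and assembly factors. These summed to 2369 to 2920 CPM in the 18 libraries and 2099 to 2336 in the 5. In bulk tumor RNA, fewer cells of a type and less RNA per cell cannot be told apart.

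**Figure D1:**
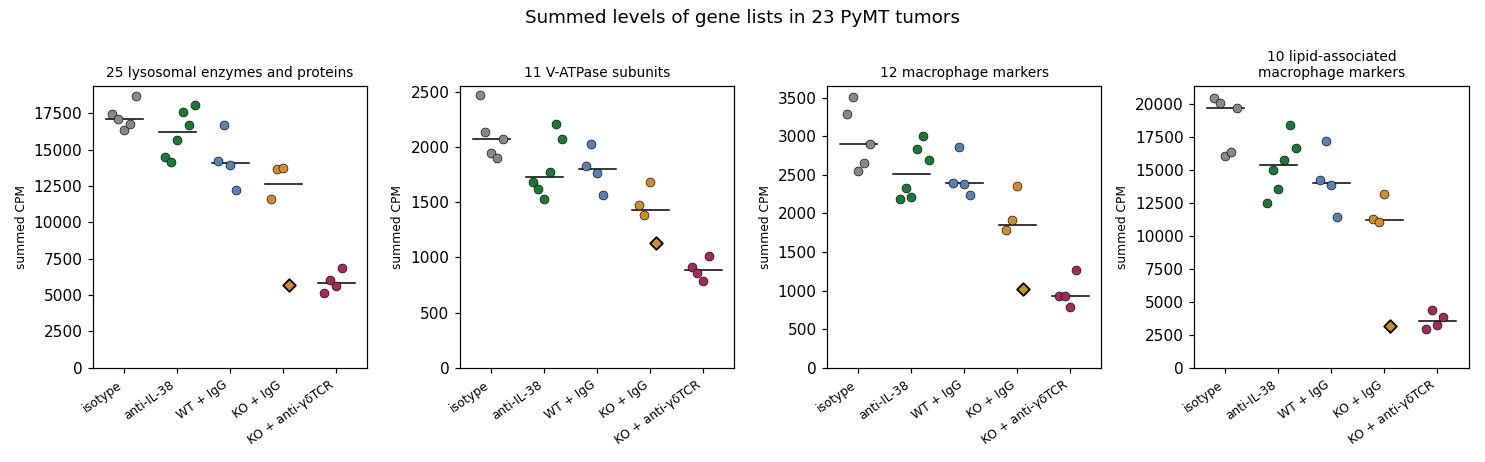
Summed CPM of 4 gene lists (vertical axis) in each of 23 tumors by group (horizontal axis). Points are libraries, lines are group medians and the diamond is IL-38 KO + IgG replicate 4. For the 25 lysosomal genes this tumor, at 5657 CPM, lay inside the range of the anti-γδTCR group, 5142 to 6843.

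Summed macrophage markers were also lowest in these 5 libraries. The 12 macrophage markers, among them Adgre1, Cd68, Csf1r and C1qa, summed to 1779 to 3513 CPM in the 18 libraries and 793 to 1263 in the 5. The 10 markers of lipid-associated macrophages, such as Gpnmb, Trem2 and Apoe, summed to 11077 to 20473 CPM in the 18 and 2937 to 4386 in the 5. Every marker of both lists had reads in every library. The macrophage markers were not uniform: with anti-γδTCR compared with IgG in IL-38 KO, 9 of 12 were lower, such as Cd68 (-2.16 ± 0.46), while C1qa (0.04 ± 0.17), Cd163 (0.48 ± 0.28) and Aif1 (0.61 ± 0.22) were not. Without replicate 4, 10 of 12 were lower, and Cd163 (0.50 ± 0.31) and Aif1 (0.79 ± 0.19) were not. The 7 neutrophil markers summed to 230 to 637 CPM in the 18 and 7.49 to 41.3 in the 5. The 8 luminal epithelial markers overlapped, at 1646 to 4138 CPM in the 18 and 2993 to 3770 in the 5. What part the share of macrophages has in the lysosomal levels was not tested.

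Gene by gene, 20 of 37 members had a level in all 5 libraries below that in all 18, and 0 had it above. Over 16163 genes with a mean of at least 0.5 CPM, the shares were 5.8% below and 5.27% above. The 20 were Ctsa, Ctsb, Ctsd, Ctsl, Ctsz, Tpp1, Hexa, Gla, Gusb, Naglu, Lipa, Npc2, Lamp1, Grn, Atp6v0a1, Atp6v0d2, Atp6v1b2, Atp6v1c1, Atp6v1e1 and Slc37a2. The 4 anti-γδTCR libraries are among the 5 and belong to the contrast that chose the list, so this is a description. The ratio of medians, 18 over 5, was 53.1 for Atp6v0d2, 8.74 for Slc37a2, 5.66 for Gla, 4.77 for Ctsd, 4.32 for Hexa and 4.31 for Ctsb. Other lysosomal genes had nearly the same level in both. The ratio was 1.18 for the aminopeptidase gene Ctsh, 1.25 for Lamp2, 1.28 for Ctsk, 0.985 for the β-galactosidase gene Glb1 and 0.841 for Ppt1, a thioesterase that removes fatty acids from proteins. The pump genes ranged from 53.1 for Atp6v0d2 through 2.37 for Atp6v0a1 and Atp6v1c1 to 1.00 for Atp6v1g1 and 0.103 for Atp6v1g3.

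**Figure D2:**
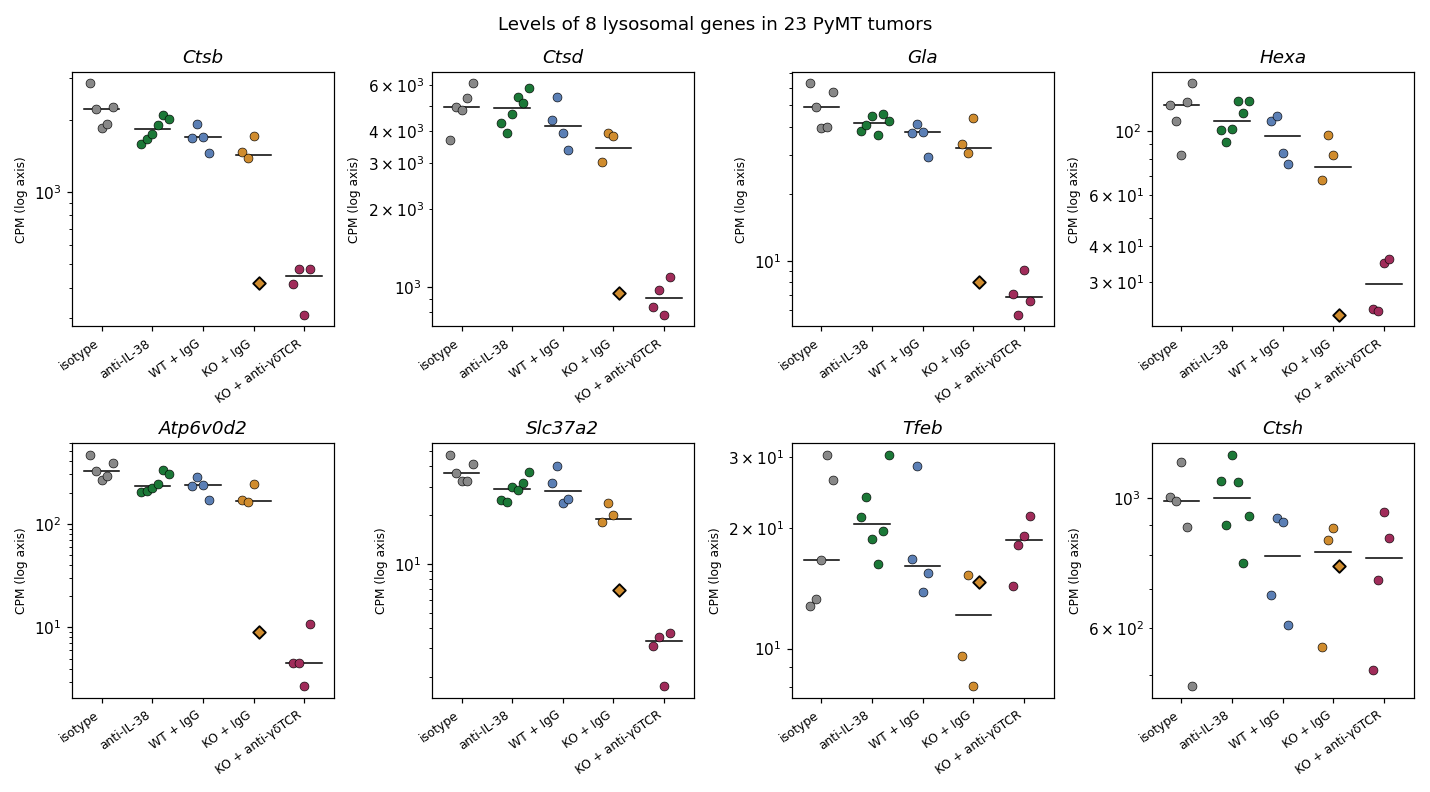
CPM (vertical log axes) of 8 genes in each of 23 tumors by group (horizontal axis), with lines at group medians and a diamond for IL-38 KO + IgG replicate 4. For Ctsb, Ctsd, Gla, Hexa, Atp6v0d2 and Slc37a2 the diamond and the anti-γδTCR tumors lie below all others, while for Tfeb and Ctsh the groups overlap.

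Blockade of the γδTCR in IL-38 KO tumors was the contrast from which the list was proposed, so its values are given without a test. The 8 libraries of this contrast form a table normalized on its own. With anti-γδTCR, 22 of 25 lysosomal genes were lower than with IgG and 3 were higher, with a median log2 difference of -0.52. Of the 10 pump genes whose normalized counts averaged 5 or more, 9 were lower and 1 was higher, with a median of -0.40. The median over 16481 genes was 0.02 and 51.9% of them were higher. The ranges of the groups did not overlap for 5 lower and 2 higher members of 37, compared with 4.98% lower and 4.57% higher of all genes. The 5 lower were Lgmn, Tpp1, Atp6v1b2, Atp6v1h and Slc37a2, and the 2 higher were Atp6v1g3 and Tfeb. Atp6v1g3, also the 1 higher pump gene, passed the count minimum through the anti-γδTCR libraries alone. It was known to be higher when the list was proposed, so its place in these counts is not weighed.

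By role, the median difference was -0.69 for the 10 peptidases, -0.49 for the 6 glycosidases, -0.18 for the 6 genes of lipid handling and -0.10 for Lamp1, Lamp2 and Grn. In the pump it was -0.42 for the 3 V0 genes with enough counts and -0.35 for the 7 V1 genes. Without IL-38 KO + IgG replicate 4 the medians were, in the same order, -0.89, -0.75, -0.34, -0.32, -0.67 and -0.39. The 3 lysosomal genes that were higher were Ctsh (0.15 ± 0.24), Glb1 (0.41 ± 0.26) and Gaa (0.36 ± 0.37), the acid α-glucosidase. Without replicate 4, Ctsh was at 0.18 ± 0.26, Glb1 fell to 0.19 ± 0.22 and Gaa turned to -0.07 ± 0.19.

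Much of the overlap between the groups came with IL-38 KO + IgG replicate 4. Without it, the anti-γδTCR libraries lay below the other 3 IgG libraries for 21 members and above them for 2, compared with 10.8% lower and 14.3% higher of 16480 genes. The 2 were again Tfeb and Atp6v1g3, the latter not weighed. The median difference without replicate 4 was -0.74 for the lysosomal genes and -0.46 for the pump genes. In 28 of 37 members replicate 4 lay nearer to the mean of the anti-γδTCR libraries than to that of the other 3 IgG libraries. Of the 21 members, replicate 4 did not exceed the highest anti-γδTCR library in 16.

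Atp6v0d2, which encodes the d2 subunit of V0, had the most negative difference of the members. Normalized counts in IL-38 KO + IgG replicates 1 to 4 were 1516, 1439, 2238 and 85.0, and those with anti-γδTCR were 47.1, 44.6, 30.8 and 105. Replicate 4 alone fell within the treated range. The log2 difference was -3.95 ± 0.89 (SE, n = 4 and 4), and -5.03 ± 0.35 without replicate 4.

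Slc37a2 had normalized counts of 160, 212, 185 and 65.2 with IgG and of 32.7, 34.3, 19.9 and 36.3 with anti-γδTCR. All treated libraries were lower, and replicate 4 was the nearest to them. The log2 difference was -2.21 ± 0.38, and -2.58 ± 0.28 without replicate 4.

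Among the hydrolases, Gla had 297, 270, 405 and 76.2 with IgG and 74.6, 56.1, 103 and 63.8 with anti-γδTCR, a log2 difference of -1.61 ± 0.45. Ctsd had 26916, 34825, 35500 and 9008 compared with 8769, 9532, 8849 and 10533, a difference of -1.32 ± 0.39. Ctsb, the gene of the cysteine protease cathepsin B, had 13077, 12318, 15846 and 3974 compared with 4344, 4672, 3495 and 4616, a difference of -1.24 ± 0.38. In all 3 the first 3 IgG libraries were above every treated library and replicate 4 was among them. Without replicate 4 the differences were -2.12 ± 0.25, -1.78 ± 0.19 and -1.68 ± 0.17.

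Ctsl, the gene of cathepsin L, had 4408, 4025, 5493 and 1736 with IgG and 1661, 1957, 1541 and 2383 with anti-γδTCR. The pattern was that of Ctsb, with a log2 difference of -0.96 ± 0.32, and -1.31 ± 0.18 without replicate 4. Lgmn, which encodes the asparaginyl endopeptidase legumain, had 636, 524, 881 and 616 compared with 247, 367, 324 and 523. Here replicate 4 was like the other IgG libraries, the lowest IgG value of 524 and the highest treated value of 523 nearly met, and the difference was -0.89 ± 0.24, and -0.91 ± 0.26 without it. Ctsk, the collagen-cleaving cathepsin of osteoclasts, had 175, 155, 238 and 224 compared with 165, 102, 172 and 352, and the groups overlapped (-0.13 ± 0.33).

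Tpp1, the tripeptidyl peptidase that trims peptides inside lysosomes, had 1289, 1238, 1674 and 1078 with IgG and 850, 769, 778 and 849 with anti-γδTCR (-0.68 ± 0.15). Atp6v1h, the regulatory H subunit of V1, had 547, 472, 533 and 522 compared with 362, 351, 394 and 354 (-0.50 ± 0.12). Atp6v1b2, the B2 subunit that binds ATP with subunit A, had 2265, 2148, 2954 and 2142 compared with 1935, 1563, 2101 and 1857 (-0.35 ± 0.15). In these 3 genes replicate 4 lay with the other IgG libraries, above every treated library. Among the remaining lysosomal genes, differences ran from -0.85 ± 0.38 for Hexa, the α subunit of hexosaminidase, through -0.75 ± 0.31 for Lipa and -0.74 ± 0.32 for the cholesterol carrier gene Npc2, to -0.06 ± 0.15 for Lamp2, a glycoprotein of the lysosomal membrane. In Hexa, replicate 4 had 221, compared with 601 to 858 in the other IgG libraries and 235 to 396 with anti-γδTCR. In Lipa it had 3105, compared with 5970 to 8070 and 2511 to 5012. In Npc2 it had 3557, compared with 7820 to 10655 and 3626 to 5656. The remaining pump genes ran from -0.57 ± 0.21 for Atp6v1c1 to -0.12 ± 0.20 for Atp6v1g1. In Atp6v1c1, replicate 4 had 338, compared with 518 to 687 and 312 to 396. The low replicate 4 makes the differences of Hexa, Lipa, Npc2 and Atp6v1c1 smaller.

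Atp6v1g3, the G3 subunit of V1, went the other way at very low counts. It had 0, 0, 1 and 2 reads in the 4 IL-38 KO + IgG libraries and 8, 36, 39 and 27 with anti-γδTCR. The sums were 3 and 110 reads, and every treated library was above every IgG library. In normalized counts plus 1 the log2 difference was 4.42 ± 0.69. WT + IgG libraries had 14, 8, 15 and 22 reads. Isotype libraries had 10, 16, 1, 4 and 0 reads and anti-IL-38 libraries 1, 6, 0, 4, 4 and 0, so that both groups of the neutralization experiment spanned 0. No other RefSeq gene lies within 30000 bases of Atp6v1g3. The 7 markers of kidney intercalated cells, which use this subunit, summed to 86.9 to 371 CPM in the 18 libraries and 308 to 458 in the 5. They summed to 208 to 308 CPM in IL-38 KO + IgG and 332 to 458 with anti-γδTCR. Of the 7 markers 4 passed the count minimum in this contrast and all 4 were higher with anti-γδTCR (median 1.19, and 1.58 without replicate 4). Slc26a4, an anion exchanger of these cells, had up to 120 reads and was at 0 in 2 of the 23 libraries, and Slc4a9 was at 0 in all 23. Their part in the values of Atp6v1g3 was not tested.

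Tfeb had 85.0, 135, 74.7 and 139 with IgG and 150, 177, 217 and 207 with anti-γδTCR, a log2 difference of 0.83 ± 0.25, and 0.96 ± 0.25 without replicate 4. In these normalized counts all treated libraries were higher than all IgG libraries. In CPM the groups overlapped, at 8.06 to 15.3 with IgG and 14.4 to 21.4 with anti-γδTCR, so the separation depends on the scaling. The 11 genes with CACGTG in a promoter had a median of -0.52 in this contrast and the 17 without it a median of -0.40.

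**Figure D3:**
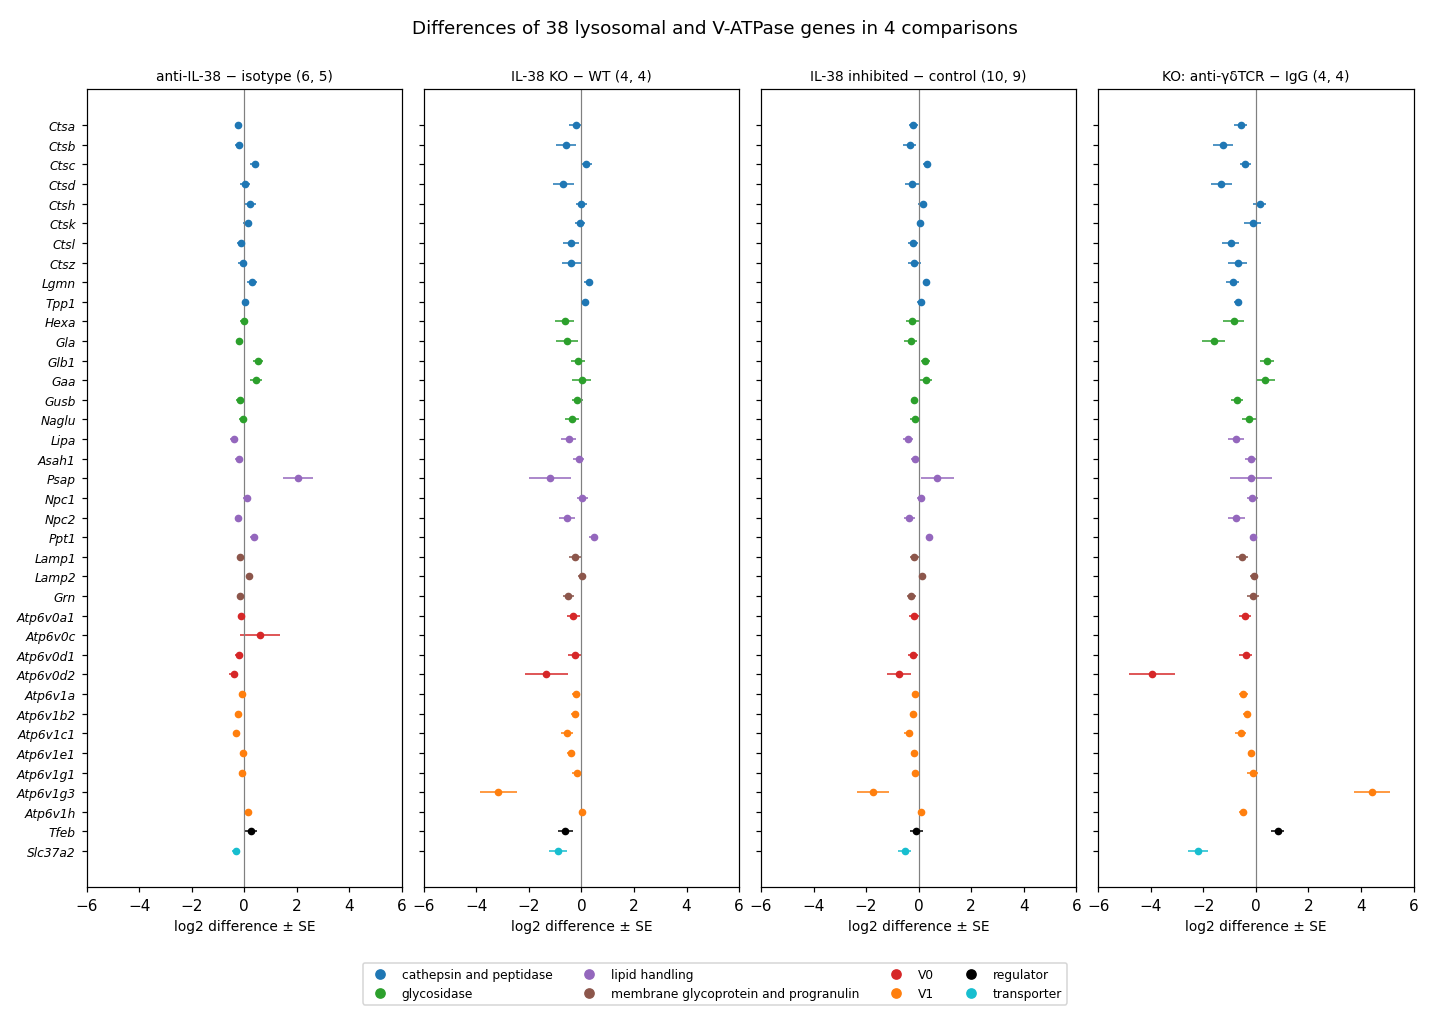
Log2 differences with their standard errors (horizontal axes) of the 38 genes (vertical axis, coloured by role) in 4 comparisons, with n per group in the titles; genes under the count minimum have no point. Most points lie near 0 for anti-IL-38, and the points for anti-γδTCR lie mostly left of 0, with Atp6v0d2 at -3.95 and Atp6v1g3 at 4.42.

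Neutralization of IL-38 shifted the lysosomal genes little. No member passed the adjusted threshold of 0.05 (limma, Benjamini-Hochberg), in a comparison where 0 of 16002 genes did (0.0%). DESeq2 called 75 genes (0.469%) and edgeR 0, with 0 members among them. Of the 25 lysosomal genes 12 were higher with anti-IL-38 and 13 lower, with a median log2 difference of -0.02. Of 10 pump genes 2 were higher and 8 lower, with a median of -0.10. At an unadjusted p under 0.05, 4 members were higher and 3 lower of 37, compared with 5.61% higher and 4.91% lower of all genes.

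Psap, the precursor of the saposins that help glycosidases act on sphingolipids, had the smallest p. Normalized counts were 355, 587, 3726, 2437 and 2874 with isotype control, and with anti-IL-38 the lowest was 3836, the median 5347 and the highest 13808. All 6 treated tumors were above all 5 controls, as was so for 0.4% of genes, and no member lay below all controls, as 0.644% of genes did. The log2 difference was 2.04 ± 0.56 (adjusted p = 0.376 by limma). Over the alternatives it ranged from 1.55 to 2.40, with adjusted p of 0.158 to 0.582.

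Ppt1 had 1126, 970, 1222, 994 and 1004 in controls and a range of 1111 to 1849 with a median of 1329 in treated tumors. The groups overlapped slightly, with a log2 difference of 0.36 ± 0.13 (adjusted p = 0.425 by limma). Glb1 had 389, 611, 885, 684 and 643 in controls and 710 to 1158 with a median of 916 in treated tumors (0.52 ± 0.19, adjusted p = 0.425 by limma). Lipa, the acid lipase that frees cholesterol from its esters, went the other way. It had 18593, 16157, 11876, 14588 and 16601 in controls and 9726 to 14907 with a median of 11781 in treated tumors (-0.38 ± 0.15, adjusted p = 0.425 by limma). Atp6v0d2 had 5653, 4161, 3418, 3570 and 4923 in controls and 2524 to 4090 with a median of 3188 in treated tumors (-0.41 ± 0.16, adjusted p = 0.432 by limma). Slc37a2 had 575, 467, 423, 398 and 533 in controls and 311 to 474 with a median of 382 in treated tumors (-0.33 ± 0.15, adjusted p = 0.471 by limma). Marker lists of several cell types leaned to 1 side with the antibody as well, with no marker past the adjusted threshold (limma). The lipid-associated macrophage markers were lower for 8 of 10 (median -0.37), the macrophage markers for 7 of 12 (median -0.12) and the neutrophil markers for 5 of 5 tested (median -0.37). Higher were 8 of 8 luminal epithelial markers (median 0.66), 7 of 7 fibroblast markers (median 0.63) and 7 of 7 T-cell markers (median 0.86). At an unadjusted p under 0.05 (limma), 2 luminal, 1 fibroblast, 0 T-cell and 1 macrophage markers were higher, compared with 5.61% of all genes. At the same threshold 6 lipid-associated macrophage, 2 macrophage and 2 neutrophil markers were lower, compared with 4.91% of all genes. The T-cell markers were low and their sums overlapped, at 1.49 to 13.2 CPM with isotype control and 4.44 to 13.6 with anti-IL-38. The part of these marker lists in the values of the members was not tested. Ctsk had 267, 190, 328, 252 and 190 compared with 215 to 351, and Tfeb 155, 169, 217, 375 and 337 compared with 212 to 389, and both overlapped.

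Loss of IL-38 was examined in the KO + IgG tumors, which also serve as the controls of the blockade. No member passed the adjusted threshold, where 1 of 16563 genes did (0.00604%). DESeq2 called 298 genes (1.8%) and edgeR 0, with 0 members among them. In KO compared with WT, 18 of 25 lysosomal genes were lower (median -0.22), and 9 of 10 pump genes were lower (median -0.28). Without replicate 4 the split of the lysosomal genes was 12 higher and 13 lower (median -0.0017), whereas 9 of 10 pump genes were still lower (median -0.22). The 12 macrophage markers were all lower, with medians of -0.45 and, without replicate 4, of -0.32. Of the 10 lipid-associated macrophage markers 9 were lower (median -0.74), and 8 without replicate 4 (median -0.28). The 5 skeletal muscle markers were higher in KO (median 2.26, and 3.22 without replicate 4). The 5 adipocyte markers were lower (median -1.06, and -1.45 without replicate 4). Of the 7 T-cell markers, all higher with anti-IL-38, 6 were lower in KO (median -0.82, and -0.64 without replicate 4). The T-cell markers were low here too, and their sums overlapped between WT and KO. At an unadjusted p under 0.05 (limma), 5 macrophage, 1 lipid-associated macrophage, 3 adipocyte and 1 T-cell markers were lower, compared with 5.4% of genes. Without replicate 4 these were 4, 2, 4 and 1, compared with 5.36%. Higher were 1 lipid-associated macrophage and 1 muscle marker, compared with 6.73%, and 1 and 5 without replicate 4, compared with 8.6%. The part of these marker lists in the values of the members was not tested. At an unadjusted p under 0.05, 1 member was higher and 4 were lower of 37, compared with 6.73% higher and 5.4% lower of all genes. Without replicate 4 these were 2 and 4 members, compared with 8.6% and 5.36%, and no member was among the 0.0431% of genes past the adjusted threshold. Atp6v1g3, which passed the count minimum through the WT tumors alone, is counted among the 4 lower members with all libraries. It is also among the lower pump genes with and without replicate 4, and is not weighed here.

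The lower members in the knockout include Atp6v1g3, whose reads are given above as a description. It passed the count minimum through the WT tumors alone, and the KO tumors are those of the contrast that chose it. Atp6v1e1, the peripheral stalk subunit E1, had 4520, 5129, 4167 and 4207 in WT and 3801, 3285, 3569 and 3033 in KO. All KO libraries were lower, as were 3.41% of genes, with a difference of -0.40 ± 0.14 (adjusted p = 0.313 by limma). Atp6v1c1, the C1 subunit that joins V1 to V0, had 948, 1235, 967 and 816 compared with 785, 683, 890 and 432, with slight overlap (-0.54 ± 0.22, adjusted p = 0.365 by limma). With single tumors left out its difference ranged from -0.67 to -0.33. Ppt1 had 1189.1, 1054, 1669 and 1230 in WT and 1887, 2026, 1707 and 1448 in KO, with overlap of 1 WT library (0.47 ± 0.17, adjusted p = 0.323 by limma). Slc37a2 had 361, 489, 277 and 292 in WT and 213, 279, 240 and 83.2 in KO (-0.89 ± 0.34, adjusted p = 0.347 by limma), and the difference was -0.51 ± 0.21 without replicate 4. Atp6v1e1 and Atp6v1g3 were the only members whose groups did not overlap, while 3.66% of genes lay higher in all KO libraries and 0 members did. Without replicate 4 the ranges were apart for 1 higher and 3 lower members, Atp6v1g3 among the lower, compared with 7.43% and 5.45% of genes.

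Other members rested on replicate 4 in this comparison. Atp6v0d2 had 2653, 3395, 2765 and 1962 in WT and 2019, 1898, 2897 and 109 in KO, a difference of -1.33 ± 0.82 that became -0.25 ± 0.20 without replicate 4. Ctsd changed from -0.69 ± 0.41 to -0.22 ± 0.22, Ctsb from -0.59 ± 0.37 to -0.13 ± 0.17 and Gla from -0.54 ± 0.42 to -0.01 ± 0.18. Tfeb had 191, 344, 161 and 179 in WT and 113, 178, 96.7 and 178 in KO, at -0.61 ± 0.28, and -0.74 ± 0.29 without replicate 4. Ctsk had 251, 239, 229 and 344 in WT and 233, 204, 308 and 286 in KO (-0.04 ± 0.19).

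Psap had opposite signs with the antibody and in the knockout. It had 3803, 3754, 854 and 4434 in WT and 785, 7432, 365 and 948 in KO, a difference of -1.19 ± 0.80. The antibody effect minus the knockout effect was 3.23 ± 1.06 on the log2 scale and did not pass the adjusted threshold (adjusted p = 0.564, limma interaction term), nor did that of any other member. The spread of Psap within groups was the largest of all members, with an SD of 1.31 on the log2 scale compared with a median of 0.326 over the 38.

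**Figure D4:**
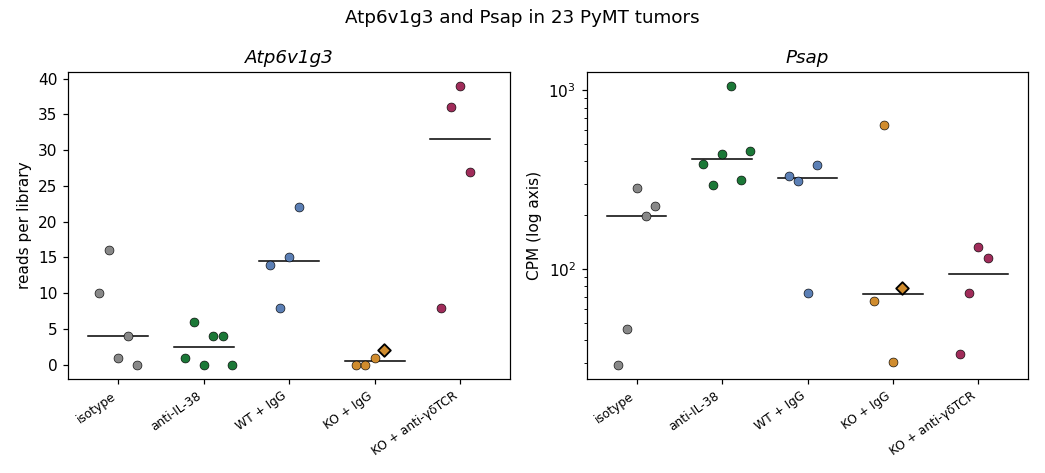
Reads of Atp6v1g3 (left, linear axis) and CPM of Psap (right, log axis) in each of 23 tumors by group, with lines at group medians and a diamond for IL-38 KO + IgG replicate 4. Atp6v1g3 had at most 2 reads in the IL-38 KO + IgG tumors and 8 to 39 with anti-γδTCR, while Psap spanned 29.2 to 1058 CPM and varied within groups.

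With antibody and knockout pooled as IL-38 inhibited (n = 10) against all controls (n = 9), no member passed the adjusted threshold, and 0 of 16352 genes did (0.0%). DESeq2 called 70 genes (0.428%) and edgeR 1 (0.00612%), with 0 members among them. At an unadjusted p under 0.05, 3 members were higher and 3 lower, compared with 6.42% higher and 4.13% lower of all genes. The smallest p was that of Ppt1 (0.39 ± 0.12, adjusted p = 0.309 by limma), which had a positive difference in both experiments. Atp6v1g3, which is among the 3 lower, passed the count minimum through the controls alone and is not weighed here. Next came Ctsc, the dipeptidyl peptidase that matures granule proteases (0.31 ± 0.14, adjusted p = 0.452 by limma). Ctsc had 2140, 2162, 3194, 1581 and 1431 with isotype control and 2327 to 3070 with anti-IL-38. It had 1927, 1751, 1802 and 2504 in WT + IgG and 1608, 1986, 2696 and 2964 in IL-38 KO + IgG, and both pairs of groups overlapped. Slc37a2 (-0.53 ± 0.24) and Atp6v1c1 (-0.38 ± 0.17) were next. Slc37a2 was at -0.34 without IL-38 KO + IgG replicate 4, and Atp6v1c1 at -0.44 to -0.26 with single tumors left out. The median was -0.16 for the lysosomal genes and -0.20 for the pump genes, and -0.0021 and -0.13 without replicate 4. Then 4 members were higher and 1 lower at an unadjusted p under 0.05, compared with 6.56% and 3.63% of all genes. These pooled fits held no term for the experiment, so differences between the neutralization and γδTCR experiments enter their error. With such a term in limma, 1 of 16352 genes passed the adjusted threshold and no member did.

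Some members could not be weighed. Atp6v0c, the proteolipid that forms the rotor of V0, had 0 to 15 reads in every library. Processed copies of it exist in the genome, so its reads may be divided among them, which was not tested. Atp6v0c fell under the count minimum in all comparisons but that of the antibody. Atp6v1g3 fell under it in the antibody comparison. All other members were tested or described in all 4 comparisons.

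Related genes outside the list were examined in the same fits, and none passed the adjusted threshold of limma in the tested comparisons. For anti-γδTCR their values are given without a test. Of 39 other lysosomal genes, 28 were higher with anti-IL-38 (median 0.09), 21 were higher in KO (median 0.04) and 8 were higher with anti-γδTCR (median -0.22). With anti-IL-38, Ctsw was at 1.17 ± 0.34 (adjusted p = 0.408 by limma) and Laptm4a at 0.45 ± 0.15. In KO the smallest p were those of the arylsulfatase gene Arsb (0.71 ± 0.26), the sialic acid transporter gene Slc17a5 (0.51 ± 0.20) and the fucosidase gene Fuca1 (-0.67 ± 0.28). With anti-γδTCR the largest differences were those of Laptm5 (-1.57 ± 0.36), the macrophage cathepsin gene Ctss (-1.29 ± 0.36) and the mannosidase gene Man2b1 (-1.10 ± 0.27), and without replicate 4 the last 2 became -1.71 and -1.36. In the pooled comparison Arsb was at 0.55 ± 0.18 and Slc17a5 at 0.46 ± 0.16.

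The other pump genes and assembly factors numbered 14. Of 13 tested, 8 were higher with anti-IL-38 (median 0.06), 4 in KO (median -0.07) and 6 with anti-γδTCR (median -0.01, and -0.20 without replicate 4). Atp6v0a4, the kidney form of the V0 a subunit, differed most with anti-γδTCR (2.49 ± 0.91, and 3.37 ± 0.66 without replicate 4). Atp6v0e2 (0.91 ± 0.51) and Atp6v0b (0.74 ± 0.23) followed. In KO the smallest p were those of Atp6v1c2 (0.58 ± 0.13, adjusted p = 0.21 by limma), Atp6v0a2 (0.43 ± 0.15) and Atp6v1f (-0.49 ± 0.19). With anti-IL-38 they were those of Atp6v1g2 (-0.79 ± 0.29), Atp6v1d (-0.22 ± 0.11) and Atp6v1f (-0.21 ± 0.12).

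Of the regulators more were lower than higher in every comparison, while the sorting genes were mixed. Of 16 genes of the MiT/TFE and mTORC1 axis, 3 were higher with anti-IL-38, 4 in KO and 6 with anti-γδTCR, with medians of -0.11, -0.22 and -0.29. With anti-IL-38 the smallest p were those of Mitf (-0.36 ± 0.14), Fnip2 (-0.34 ± 0.14) and Tfe3 (-0.29 ± 0.13). Rragd, a GTPase that recruits mTORC1 to lysosomes, was at 0.88 ± 0.31 in KO (adjusted p = 0.321 by limma), followed by Lamtor4 (-0.32 ± 0.14) and Rragc (-0.33 ± 0.15). Tfec (-0.89 ± 0.48), Rraga (-0.57 ± 0.27) and Rragc (-0.49 ± 0.16) differed most with anti-γδTCR. Of the 10 genes that sort enzymes to lysosomes, 4 were higher with anti-IL-38, 6 in KO and 4 with anti-γδTCR. Gnptg, of the enzyme that builds the mannose-6-phosphate tag, was at 0.87 ± 0.19 with anti-IL-38 (adjusted p = 0.326 by limma), ahead of Vps35 (-0.25 ± 0.10) and Rab7 (-0.30 ± 0.13). The 2 mannose-6-phosphate receptor genes led in KO, with Igf2r at 0.72 ± 0.17 (adjusted p = 0.21 by limma) and M6pr at 0.61 ± 0.19 (adjusted p = 0.286 by limma). In the pooled comparison Gnptg was at 0.68 ± 0.15 (adjusted p = 0.165 by limma). With anti-γδTCR M6pr was at -0.55 ± 0.16, Vps41 at 0.46 ± 0.16 and Nagpa at -0.40 ± 0.24. Of 3 cystatins, which inhibit cathepsins, Cst6 was under the count minimum. Cst3 was at 0.74 ± 0.34 with anti-IL-38, -0.53 ± 0.24 in KO and 0.66 ± 0.39 with anti-γδTCR. Cstb was at -0.09 ± 0.14, -0.28 ± 0.19 and -0.72 ± 0.21 in the same order.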

How the data were processed

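Total RNA of PyMT tumors was sequenced with QuantSeq, a 3′ mRNA method. The submitters' processing notes name STAR, HTSeq, DESeq2 and GRCm39 without roles. The authors deposited a signal per gene, read counts divided by 1 size factor per library, in tables of 19 and 8 libraries normalized apart. The 4 IL-38 KO + IgG libraries stand in both. Dividing by the value of 1 read gave back whole reads for 100% of values within a tolerance of 0.0001%, from which CPM were made. In WT + IgG replicate 1 the step was 0.996, near 1, and all values were whole multiples of it within the same tolerance.

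Within a table, genes whose normalized counts averaged 5 or more were tested two-sided by limma 3.58.1 (R 4.3.3, moderated variances with a trend) after adding 1 and taking log2. Adjustment was by Benjamini-Hochberg over all genes, at a threshold of 0.05. Log2 differences understate those of low genes. Standard errors are those of this fit. edgeR 4.0.16 and DESeq2 1.42.0 on the whole reads were among the alternatives. In simulated counts with 200 genes changed 4-fold, limma recovered 200, 196, 200 and 198 of them with 9, 9, 8 and 8 false calls, in the order antibody, knockout, inhibited, blockade. The changed genes were drawn from those with higher counts, the dispersion was the same for all genes and no library stood apart. The simulation therefore checks the fit and does not measure how many changes the real libraries would reveal.

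Members and lists were chosen with earlier results of these data known. All 38 are accounted for. Given in every library are the 5 with the smallest p in each tested comparison, the 8 with the largest difference in the blockade, and Atp6v1g3, Atp6v0d2, Ctsk, Tfeb and Slc37a2. Of each other list up to 3 genes are named by the same measures. A gene that this rule names among the other lysosomal genes is not reported here. Names came from GENCODE M21 and motifs from RefSeq promoters, whose build differs from that of the notes, so no other coordinates are given.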

Additional observations from a re-analysis of the deposited data

Results flagged for a closer look

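In 5 of 189 groups of 4 to 6 tumors examined (2.65%), 1 tumor stood apart from the rest of its group by Dixon's ratio at 95%. Chance alone gives about 1 in 20. In IL-38 KO + IgG, Ctsa was at a normalized count of 1527 in replicate 4 and at 3366 to 3479 in the others. Psap was at 7432 in replicate 2 of the same group compared with 365 to 948, and at 13808 in anti-IL-38 replicate 4 compared with 3836 to 6424. Npc1, the gene of the lysosomal cholesterol exporter, was at 2263 in anti-IL-38 replicate 3 compared with 1344 to 1654. Tfeb was at 344 in WT + IgG replicate 2 compared with 161 to 191.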

How the results depend on the processing

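No member passed an adjusted p of 0.05 in any alternative of the tested comparisons. The lowest adjusted p was 0.158 for Psap with the antibody, 0.0953 for Atp6v1e1 in the knockout and 0.135 for Ppt1 in the pooled comparison, leaving aside Atp6v1g3, which passed the count minimum through the controls alone. Over all genes, limma and DESeq2 called 0 and 75 with the antibody, 1 and 298 in the knockout, and 0 and 70 in the pooled comparison. Members with an unadjusted p under 0.05 numbered 7 with the antibody and 3 to 10 when single tumors were left out (3 without isotype replicate 1, 4 without anti-IL-38 replicate 1). In the knockout they numbered 5, Atp6v1g3 among them. They numbered 2 to 8 with single tumors left out (2 without WT + IgG replicate 2, 8 without IL-38 KO + IgG replicate 3). In the pooled comparison they numbered 6, Atp6v1g3 among them. They numbered 2 with edgeR, 11 with the experiment as a term, and 2 to 8 with single tumors left out. The counts of 2 there came without IL-38 KO + IgG replicate 3, WT + IgG replicate 2 or isotype replicate 5, and those of 3 without IL-38 KO + IgG replicate 1 or isotype replicates 2 or 4. The cause was not tested.

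With single tumors left out, median log2 differences of the lysosomal genes were -0.08 to 0.02 with the antibody, -0.32 to -0.0017 in the knockout, -0.20 to -0.0021 in the pooled comparison and -0.74 to -0.47 in the blockade. Those of the pump genes were -0.16 to -0.08, -0.43 to -0.19, -0.24 to -0.13 and -0.46 to -0.26. Leaving out IL-38 KO + IgG replicate 4 gave the values nearest 0 of the lysosomal genes in the knockout and pooled comparisons and the lowest in the blockade. Same-numbered tumors did not deviate together (correlations of -0.169 to 0.0746), so the numbers were not taken as pairs. With the replicate number as a block, members with an unadjusted p under 0.05 numbered 13 in the knockout, 7 with the antibody and 7 in the pooled comparison. The 8-letter motif gave 5 members and the 10-letter motif 0, compared with 11 for the core. Depth limits Atp6v1g3 and Atp6v0c, which had at most 39 and 15 reads.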
